A study of Nannospalax ehrenbergi and Mus musculus with 14 samples.

Results

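The blind mole rat *Spalax* is a subterranean rodent in which tumors are rarely seen, and 3-methylcholanthrene (3MCA) is a polycyclic carcinogen that gives rise to sarcomas where it is injected. MicroRNA levels of the fibrosarcomas that formed in *Spalax* were compared here with those of the fibrosarcomas that formed in mice, over the 5 tumor libraries among the 14 microRNA libraries of the series. The members were the 528 of 1326 microRNA names that had at least 1 read in a tumor of each species, and 433 of these, with a normalized read count of at least 10 in at least 2 of the 5 tumors, were tested. The *Spalax* tumors came from animal Sp2230, a male sampled 30 months after a single subcutaneous injection of 1 mg 3MCA in 500 µl into the neck, and from animal Sp2240, a female sampled at 18 months. The mouse tumors came from the C57BL/6 males M1019, M1023 and M512, sampled 14, 12 and 11 weeks after a single injection of 200 µg in 200 µl, and the mice of the study were 3 to 4 months old. The *Spalax* of the series were wild-caught, so that their ages, listed as about 2 years or at least 10 years, are estimates. Species, dose, age, strain and time after injection therefore went together and cannot be told apart, and the only female was a *Spalax*. The injected side (IS) was read in the proximal part of the tumor, and the uninjected side (UIS), muscle from the other side of the neck of the same animal, was read in both *Spalax* and in mice M1023 and M512. Each group held 2 or 3 animals, 1 library each.

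MicroRNAs are short RNAs that are cut from a hairpin and guide silencing complexes to matching messenger RNAs. Each hairpin yields a product from its 5p arm and one from its 3p arm, of which usually one is kept and the other degraded. The largest microRNA group of these genomes lies between the imprinted genes *Dlk1* and *Dio3*, where long noncoding RNAs (*Meg3*, *Rian* and *Mirg* in mouse) made from the maternal chromosome carry long rows of hairpins. This locus is active in the embryo, in regenerating muscle and in mesenchymal cells, and its microRNAs are often lost or raised as a group in cancer. A second group, on the X chromosome next to *miR-322* and *miR-503*, is raised when cells leave the cell cycle, and the *miR-34* family is switched on by p53.

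The hairpins below are those of the microRNAs on which the results turn, in the mouse sequence (GENCODE M21 transcripts, GRCm38), lower case with the terminal loop of the RNAfold structure in capitals, so that the 5p arm lies before the capitals and the 3p arm after them. The table gives all reads under mouse names, and the *Spalax* hairpins were not used here. *Mir127* (chr12:109592846-109592915, plus strand) and *Mir434* (chr12:109594506-109594599, plus strand) lie opposite the exon of the retrotransposon-derived gene *Rtl1*. *Mir370* (chr12:109618258-109618336, plus strand) lies in an intron of *Rian*, *Mir381* (chr12:109726822-109726896, plus strand) outside other annotated genes, *Mir541* (chr12:109742409-109742498, plus strand) in an intron of *Mirg* and *Mir410* (chr12:109743715-109743795, plus strand) in an exon of *Mirg*. *Mir351* (chrX:53053255-53053353, minus strand) and *Mir450b* (chrX:53047997-53048078, minus strand) belong to the X-linked group, and *Mir34c* (chr9:51103034-51103110, minus strand) lies opposite an intron of *Btg4*.
Mir127: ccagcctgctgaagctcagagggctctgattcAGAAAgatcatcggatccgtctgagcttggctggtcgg
Mir434: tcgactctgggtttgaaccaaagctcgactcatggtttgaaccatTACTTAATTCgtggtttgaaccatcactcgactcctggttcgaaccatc
Mir370: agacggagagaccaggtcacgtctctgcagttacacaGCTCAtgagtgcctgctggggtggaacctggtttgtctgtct
Mir381: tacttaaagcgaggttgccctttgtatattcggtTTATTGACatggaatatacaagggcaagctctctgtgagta
Mir541: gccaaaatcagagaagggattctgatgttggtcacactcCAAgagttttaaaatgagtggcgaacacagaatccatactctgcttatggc
Mir410: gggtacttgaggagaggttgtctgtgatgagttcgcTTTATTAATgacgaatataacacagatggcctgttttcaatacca
Mir351: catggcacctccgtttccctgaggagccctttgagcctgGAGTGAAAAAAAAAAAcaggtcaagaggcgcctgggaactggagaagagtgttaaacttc
Mir450b: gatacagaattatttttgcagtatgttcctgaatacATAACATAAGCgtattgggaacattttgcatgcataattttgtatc
Mir34c: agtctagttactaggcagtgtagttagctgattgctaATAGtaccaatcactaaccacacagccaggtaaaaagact

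The next hairpins gave the microRNAs that were higher in the *Spalax* tumors. *Mir452* (chrX:72262224-72262308, minus strand) and *Mir224* (chrX:72261031-72261112, minus strand) lie in an intron of *Gabre*, a GABA receptor subunit gene, *Mir146b* (chr19:46342762-46342870, plus strand) in an intron of *Mfsd13a*, *Mir199b* (chr2:32318460-32318569, plus strand) opposite an intron of *Dnm1*, and *Mir155* (chr16:84714140-84714204, plus strand) in an exon of *Mir155hg*.
Mir452: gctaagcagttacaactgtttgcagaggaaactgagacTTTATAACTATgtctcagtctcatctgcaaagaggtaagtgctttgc
Mir224: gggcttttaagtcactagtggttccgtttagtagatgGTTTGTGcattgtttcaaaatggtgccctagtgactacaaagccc
Mir146b: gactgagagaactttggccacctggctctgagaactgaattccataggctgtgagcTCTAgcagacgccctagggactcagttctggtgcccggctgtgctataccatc
Mir199b: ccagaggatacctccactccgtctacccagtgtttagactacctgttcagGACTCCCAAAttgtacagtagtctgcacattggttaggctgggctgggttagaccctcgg
Mir155: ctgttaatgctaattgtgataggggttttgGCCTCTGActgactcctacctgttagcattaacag

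The tumor libraries held between 2034574 and 9574014 reads on microRNAs, the lowest in *Spalax* Sp2240, and the 4 uninjected libraries between 11777494 and 13982842. One read was worth a normalized read count of 0.544 in *Spalax* tumor Sp2230, 2.17 in *Spalax* tumor Sp2240 and 0.305 to 0.99 in the mouse tumors. The *Spalax* tumors showed 527 and 482 names with a read and the mouse tumors 898 to 1083, and 675 names were read in mouse tumors only against 21 in *Spalax* tumors only. Since the names are those of the mouse, a *Spalax* sequence that departs from the mouse one can be missed, and the part of this in the values was not tested. The tissue markers went with the labels. The fibroblast list (*miR-199*, *miR-214*, *miR-21* and *miR-29*) took 16.7% to 27.9% of reads in the 5 tumors and 0.746% to 2.87% in the 4 uninjected muscles, whereas the skeletal muscle list, led by *miR-1a* and *miR-133a*, took 27.7% to 36.5% of reads in the muscles. Muscle microRNAs did not stay out of all tumors, since they took 0.0132% and 0.0112% of reads in the *Spalax* tumors, 0.0101% in mouse tumor M1019, 2.57% in mouse tumor M1023 and 3.95% in mouse tumor M512. Libraries of the same group differed far beyond sampling noise (chi-square per degree of freedom at least 426), so each was counted as a library of its own. In bulk tissue, fewer cells of a type and less RNA per cell cannot be told apart.

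The most abundant microRNAs of both tumors were largely shared. *miR-21a-5p*, a microRNA raised in many tumors and in fibrosis, led all 5 libraries, at normalized read counts of 592873 and 583878 in the *Spalax* tumors and 291683, 388279 and 291507 in the mouse tumors. The groups did not overlap, but the difference of 0.88 ± 0.30 (log2, limma, difference ± SE) did not pass the test (adjusted p = 0.0743). *miR-22-3p*, *miR-26a-5p*, *miR-10b-5p*, *let-7f-5p* and *miR-199a-3p*, whose sequence is that of *miR-199b-3p*, were also among the leading names of both species, and none of them passed the test. *miR-16-5p*, a brake of the cell cycle, stood among the leading names of *Spalax* with 189349 and 274248 against 113367, 95676 and 67117, a difference of 1.34 ± 0.39 (adjusted p = 0.0428) that was lost in every omission of 1 tumor (adjusted p between 0.0783 and 0.154) and when the reads were scaled to library totals (0.163). *miR-127-3p*, of the imprinted locus, was among the 10 leading names of the mouse tumors and not among those of the *Spalax* tumors.

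Between the species, 131 of the 433 microRNAs (30.3%) passed the test, 36 (8.31%) higher and 95 (21.9%) lower in the *Spalax* tumors. Of the 95 lower ones 47 were below 10 in both *Spalax* tumors, and of the 36 higher ones 6 were below 10 in all mouse tumors. With 10 or more required in all 5 tumors, which leaves 290 microRNAs, 14 were higher and 21 lower. The median difference over all 433 was 0.01 on the log2 scale. With the reads scaled to library totals the median was −0.41 and 18 microRNAs were higher and 101 lower, so that the higher ones were 15.1% of the calls against 27.5% here. Leaving out single tumors lowered the counts, to 14 higher and 32 lower without *Spalax* Sp2230, 19 and 71 without *Spalax* Sp2240, 16 and 81 without mouse M1019, and 9 and 56 without mouse M1023. All log2 differences are of log2(normalized read count + 1), *Spalax* less mouse, and understate the change of low microRNAs.

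The imprinted *Dlk1-Dio3* microRNAs were lower in the *Spalax* tumors almost throughout. Of the 96 names of the locus, 58 were tested, and 55 of these (94.8%) were lower in *Spalax*, none was higher and 3 did not pass, against 21.9% lower among all tested. The median difference was −4.99 (log2) for these 58 and 0.26 for the 375 other microRNAs, of which 40 were lower (10.7%) and 36 higher (9.6%). Of the names that could not be tested, 34 were read in the mouse tumors only, 10 of them at 10 or more in all 3, 3 were read in both species but too low, and 1 had no read. The names of the locus took 0.0472% and 0.132% of all reads in the *Spalax* tumors and 5.62%, 10.4% and 2.60% in the mouse tumors. In the uninjected muscles these shares overlapped, at 0.0814% and 0.115% in *Spalax* and 0.182% and 0.0946% in mouse. In mouse tumor M1019, with 5.62% of its reads on the locus, the muscle list took 0.0101% of reads, against 0.0132% and 0.0112% in the *Spalax* tumors. The part of muscle tissue in the locus shares was not tested.

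**Figure D1:**
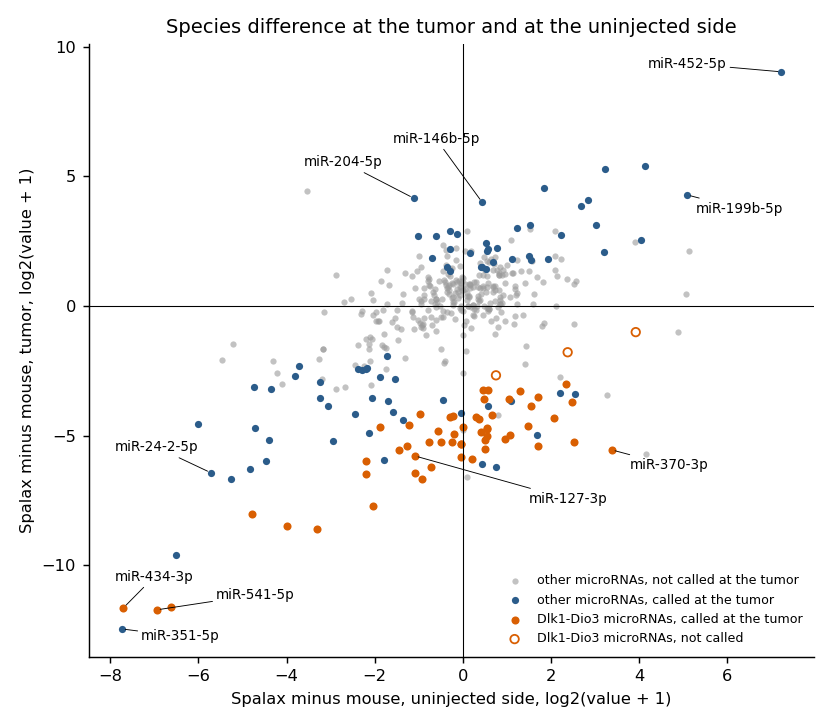
Species difference (Spalax less mouse, log2 of normalized read count + 1) of each of the 433 microRNAs at the uninjected side (horizontal axis) and at the tumor (vertical axis), with the 58 imprinted microRNAs in their own color. The imprinted microRNAs lie below 0 on the vertical axis and on both sides of 0 on the horizontal axis, with medians of −4.99 and 0.11.

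*miR-127-3p*, which lies opposite *Rtl1* and cuts its messenger RNA, was the most abundant of the locus. Its normalized read counts were 995 and 2801 in the *Spalax* tumors and 88978, 187529.8 and 46636 in the mouse tumors. The groups lay far apart, with a difference of −5.78 ± 0.73 (adjusted p = 0.00291). In the muscle of the same animals it stood at 5459.6 and 7559 in *Spalax* and 15707 and 11927 in mouse, a difference of −1.09 ± 0.69 that did not pass (adjusted p = 0.363). On this normalized scale both *Spalax* tumors were thus below the muscle of their own animals, and all 3 mouse tumors were above the mouse muscles. The order within *Spalax* depends on the size factors. As a share of reads, all names of the locus took 0.132% in tumor Sp2240 and 0.115% in its muscle. In Sp2230 they took 0.0472% in the tumor and 0.0814% in the muscle.

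The same order of tumor and muscle was found on the normalized scale in other abundant microRNAs of the locus. Within *Spalax* it again depends on the size factors, since 1 read was worth 2.17 in tumor Sp2240 and 1.08 in its muscle. *miR-411-5p*, from the distal cluster, had 418 and 1183 in the *Spalax* tumors and 18909.6, 41707 and 7407 in the mouse tumors (−4.68 ± 0.84, adjusted p = 0.0097). Its levels in muscle were nearly equal, 1728 and 3114 in *Spalax* against 2411 and 2237 in mouse. *miR-410-3p*, from the exon of *Mirg*, had 46.8 and 111 against 2771, 6401 and 3855 (−5.81 ± 0.62, adjusted p = 0.00164). In muscle it stood at 366 and 352 against 362 and 376, so that the groups overlapped there. *miR-136-3p* had 47.9 and 152 against 2627, 7590.0 and 1813 (−5.26 ± 0.82, adjusted p = 0.00636). The calls of *miR-411-5p* and *miR-136-3p* were lost without *Spalax* tumor Sp2230 (adjusted p = 0.079 and 0.058).

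*miR-381-3p* and *miR-370-3p* were higher in *Spalax* muscle than in mouse muscle and lower in *Spalax* tumors than in mouse tumors. *miR-381-3p* had 262 and 723 in the *Spalax* tumors against 4065, 7560.0 and 6079 in the mouse tumors (−3.71 ± 0.60, adjusted p = 0.00715). In muscle the order was the other way around, 2556 and 2876 against 607 and 384 (2.49 ± 0.56, adjusted p = 0.0242). *miR-370-3p* had 2.18 and 4.34, from 4 and 2 reads, against 227, 269 and 116 in the tumors (−5.55 ± 0.66, adjusted p = 0.00249), and 21.7 and 33.4 against 6.21 and 0 in muscle (adjusted p = 0.0477). For *miR-495-3p* the tumors held 2.72 and 2.17, from 5 and 1 reads, against 94.8, 218 and 107 (−5.26 ± 0.65, adjusted p = 0.00274), and the muscles 37.3 and 81.8 against 12.4 and 6.24 (2.51 ± 0.68, adjusted p = 0.0425). *miR-493-5p* was the fourth imprinted microRNA that was higher in *Spalax* muscle, and its tumor values of 10.9 and 71.6 against 40.9, 69.1 and 69.3 overlapped. Of the muscle calls, those of *miR-381-3p*, *miR-495-3p* and *miR-493-5p* were lost without any 1 muscle library and that of *miR-370-3p* without any but M1023. The fit also used the tumors. The muscle call of *miR-370-3p* was lost without mouse tumor M1019 (limma adjusted p = 0.0673) or M1023 (0.0738) and without either *Spalax* tumor. That of *miR-495-3p* was lost without mouse tumor M1019 (0.0632) or M1023 (0.0564).

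A smaller set was low in *Spalax* on both sides. *miR-434-3p*, from the hairpin next to *Mir127*, had 2.72 and 2.17 (5 reads and 1 read) in the *Spalax* tumors against 8054, 21729.8 and 7569 in the mouse tumors (−11.64 ± 0.63, adjusted p = 0.000428). In muscle it had 15.6 and 6.46 against 2130.1 and 2527 (−7.70 ± 0.64, adjusted p = 0.000277). *miR-541-5p* had 0.544 and 6.51 (1 and 3 reads) against 14569, 30196 and 3473 in the tumors (−11.72 ± 1.10, adjusted p = 0.00112), and 8.43 and 8.61 against 1344 and 1028 in muscle (adjusted p = 0.00348). *miR-300-3p* had 4.9 and 10.8 against 3177, 5816 and 1436 in the tumors (−8.48 ± 0.74, adjusted p = 0.000971), and in muscle 22.9 and 19.4 against 405 and 301, where its call was lost without muscle M1023 (0.0506), Sp2230 (0.053) or Sp2240 (0.0673). In these 3 microRNAs neither tissue of *Spalax* reached the mouse levels, and whether *Spalax* sequence variants went uncounted was not tested.

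For 4 imprinted microRNAs among the largest differences, the *Spalax* tumors held 1 read in all, so that only a ratio with its counting interval can be given. Mouse tumors exceeded *Spalax* tumors 17203-fold for *miR-434-5p* (95% exact Poisson interval of the *Spalax* count 3088 to 679474), 1989.7-fold for *miR-380-3p* (357 to 78589), 1437-fold for *miR-329-5p* (258 to 56747) and 1046-fold for *miR-666-5p* (188 to 41309.5). These intervals cover counting error only. The first 3 passed the test at the uninjected side too, a call that for *miR-380-3p* was lost without any 1 muscle library (adjusted p of 0.0576 to 0.118), and *miR-666-5p* did not (adjusted p = 0.0948).

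**Figure D2:**
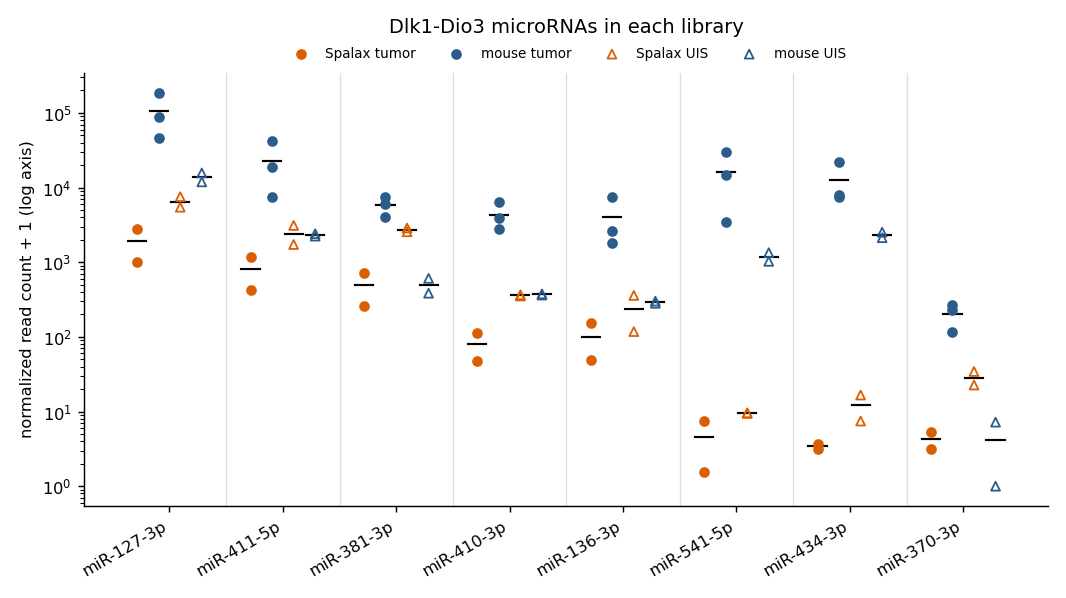
Normalized read counts + 1 (log scale) of 8 imprinted microRNAs in the Spalax and mouse tumors, 1 point a library. The uninjected muscles of the same animals, except mouse M1019, stand beside them. For miR-127-3p the Spalax tumors stand at 995 and 2801, below the 3 mouse tumors at 46636 to 187529.8.

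Levels below 10 weighed on the count. Of the 55 lower imprinted microRNAs and 3 others tested, 27 were below 10 in both *Spalax* tumors, and only 10 of the 58 were at 10 or more in all 5 tumors. Of these 10, 8 were lower in *Spalax*. The 3 that did not pass, *miR-493-5p*, *miR-758-3p* and *miR-494-3p*, had differences of −1.01, −1.78 and −2.67, all in the direction of the rest. Without *Spalax* tumor Sp2230, which leaves the shallow library Sp2240 alone in its group, 22 of the 58 were lower instead of 55, with a median difference of −4.43.

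The difference was found in both groups of the locus. The 16 tested members of the proximal group (*miR-770* to *miR-370*) had a median difference of −5.67 with 15 lower, and the 42 of the distal group (*miR-379* to *miR-410*) one of −4.79 with 40 lower. The 58 arms came from 41 hairpin genes placed 8.298 to 180.023 kb after the start of *Mir770*, and none of them was higher in *Spalax*. None of these arms lay between *Mir370* at 54.566 kb and *Mir379* at 145.368 kb. *Mir299b* lies within the bounds of *Mir299a*, and the arms of both held nearly the same reads, so that these counts hold them more than once. *miR-341-3p* was not in the list of the locus, but its gene (chr12:109611500-109611595, plus strand) lies between *Mir434* and *Mir370*. It was singled out after its values were seen, at 69.7 and 191 in the *Spalax* tumors against 1178, 1859 and 764 in the mouse tumors (−3.35 ± 0.67, adjusted p = 0.0141), and the call was lost without *Spalax* tumor Sp2230 (0.079) or mouse tumor M1023 (0.0633).

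**Figure D3:**
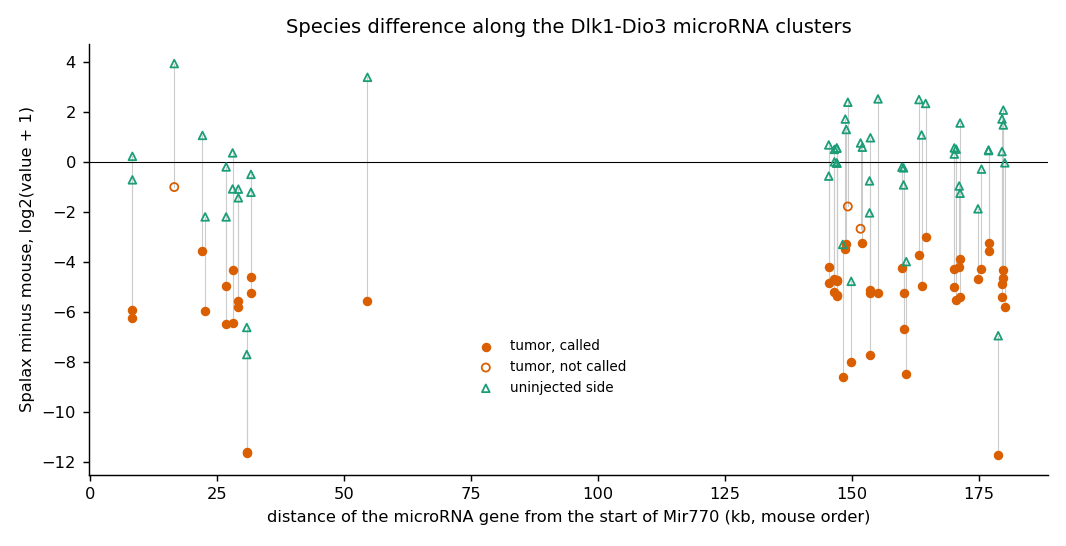
Species difference at the tumor (log2, circles) and at the uninjected muscle of each tested arm of the Dlk1-Dio3 locus, placed by the distance of its gene from the start of Mir770 in kb, from 8.298 to 180.023 kb. The tumor differences lie below 0 at every arm shown, between −11.72 and −1.01. Those of the muscle lie on both sides of 0, between −7.70 and 3.93, with 6 arms called lower and 4 higher. No arm lies between 54.566 and 145.368 kb.

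The *Spalax* granulomas, benign lesions that also followed 3MCA, offered injected tissue of the same species. They took 3.66% (animal Sp600, 14 months) and 1.59% (animal Sp976, 16 months) of reads on the locus, above both *Spalax* tumors, the first within and the second below the range of the mouse tumors. For 53 of the 58 imprinted microRNAs both granulomas were above both *Spalax* tumors, as they were for 95 of the 433 microRNAs tested. *miR-127-3p* stood at 75285 and 33693 in the granulomas, and *miR-381-3p* at 20201 and 6209.9. For *miR-434-3p* the granulomas held 6.24 and 1.27, as low as the *Spalax* tumors. Both granulomas came from females, and this order was noted without a test.

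Outside the imprinted locus, the largest difference was that of *miR-351-5p*, a member of the X-linked group of *miR-322* and *miR-503* in rodents. It had 5.44 and 0 (10 reads in all) in the *Spalax* tumors against 9654, 6834 and 44273 in the mouse tumors (−12.46 ± 1.11, adjusted p = 0.000971). It was low in *Spalax* muscle as well, at 10.8 and 2.15 against 1457 and 1171 (−7.74 ± 1.14, adjusted p = 0.00348). *miR-450b-5p* of the same group had 3 and 0 reads in the *Spalax* tumors and 716, 981 and 2845 in the mouse tumors, which is 1854-fold (634 to 8991) more in mouse. *miR-322-3p* was lower too, with 407 and 133 reads against 3922, 2010 and 3100 reads, means of 255 against 1824 normalized (−2.69 ± 0.60, adjusted p = 0.0207), a call that was lost without either *Spalax* tumor (0.102 and 0.0685) or mouse tumor M1023 (0.0608). Of the 9 tested members of the group, 3 were lower, none higher and 6 did not pass, with a median of −0.19, and the group took 0.281% and 0.457% of reads in the *Spalax* tumors and 0.707%, 0.617% and 1.97% in the mouse tumors. Its main product *miR-322-5p* stood at 6745 and 13704 against 6992, 9184 and 11820.1, with overlapping groups (0.08 ± 0.49, adjusted p = 0.934).

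The *miR-34* family split. *miR-34c-5p* had 14.7 and 143 in the *Spalax* tumors against 2918, 8127 and 4901 in the mouse tumors (−6.68 ± 1.00, adjusted p = 0.00584), and 2.41 and 5.38 against 180.2 and 178 in muscle (adjusted p = 0.00995), where the call was lost without muscle M1023 (0.0523), M512 (0.0617) or Sp2230 (0.0937). *miR-34b-3p*, from the same transcript, had 0.544 and 21.7 against 99.7, 186 and 99 (−4.38 ± 1.16, adjusted p = 0.0341), a call that was lost without *Spalax* tumor Sp2230 (0.0868) or any of mouse tumors M1019 (0.0607), M1023 (0.119) and M512 (0.061). In contrast, *miR-34a-5p*, from a gene of its own, was higher in *Spalax*, at 2149.5 and 842 against 245, 256 and 239 (2.44 ± 0.57, adjusted p = 0.0229). In muscle *miR-34a-5p* did not differ past the threshold (0.54 ± 0.54). Its call at the tumor was lost without *Spalax* tumor Sp2230 (adjusted p = 0.092), mouse tumor M1023 (0.088) or mouse tumor M1019 (0.054). In the list of *miR-15/16* and *miR-34* brakes of the cell cycle, 4 of 14 tested members were higher, 3 lower and 7 not called, with a median of 1.10, against 8.31% higher and 21.9% lower over all tested.

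Several other microRNAs were named after their values were seen. *miR-31-5p*, a microRNA lost or raised in different tumor types, had 444 and 3105 against 11270.0, 18637 and 15785 (−3.66 ± 0.83, adjusted p = 0.0221), while its muscle values overlapped at 610.2 and 230.4 against 87 and 348. *miR-335-5p*, from an intron of the imprinted gene *Mest*, had 41.9 and 58.6 against 873, 407 and 11184 (−4.97 ± 1.37, adjusted p = 0.0378). *miR-298-5p*, which lies in another imprinted region, had 127 and 241 against 2579, 3771 and 661 (−3.40 ± 0.84, adjusted p = 0.0273). For all 3, *Spalax* muscle was not below mouse muscle past the threshold. The call of *miR-31-5p* was lost without *Spalax* tumor Sp2230 (adjusted p = 0.0604) or mouse tumor M1023 (0.0823), that of *miR-335-5p* without either *Spalax* tumor (0.179 and 0.133), and that of *miR-298-5p* without any 1 tumor but M512 (0.0601 to 0.15). By contrast *miR-101b-3p* and *miR-24-2-5p* were low on both sides. *miR-101b-3p* had 69.1 and 52.1 against 2075, 2020.0 and 2567 in the tumors (−5.18 ± 0.47, adjusted p = 0.000981) and 223 and 259 against 4709.6 and 5461 in muscle. *miR-24-2-5p* had 21.2 and 13 against 1286, 1649.7 and 1668 in the tumors (−6.43 ± 0.51, adjusted p = 0.000971) and 30.1 and 38.8 against 2192 and 1565 in muscle.

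Among the microRNAs that were higher in the *Spalax* tumors, those of the *Gabre* intron led. *miR-452-5p* had 1269.7 and 751 in the *Spalax* tumors against 3.05, 0.601 and 0 in the mouse tumors, which held 11 reads in all (9.03 ± 0.80, adjusted p = 0.000971). Its partner *miR-452-3p* had 125 and 108 against 1.52, 1.2 and 3.96 (5.28 ± 0.67, adjusted p = 0.00292). The neighboring *miR-224-5p*, often raised in tumors, had 2601 and 1456 against 419.9, 319 and 180.1 (2.75 ± 0.58, adjusted p = 0.018), and *miR-224-3p* had 40.8 and 15.2 against 0.61, 1.2 and 0, from 4 mouse reads. None of the 4 overlapped between the species. *miR-452-5p* was higher in *Spalax* muscle too, at 90.3 and 248 against 0 and 0 (adjusted p = 0.00119), whereas *miR-224-5p* did not pass there with 143 and 575 against 70.4 and 51.5 (adjusted p = 0.0754). The call of *miR-224-5p* at the tumor was lost without *Spalax* tumor Sp2230 (adjusted p = 0.098) or mouse tumor M1023 (0.068), as was that of *miR-224-3p* (0.0668 and 0.0534).

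Others were higher in *Spalax* on both sides. *miR-505-3p* had 422 and 471 against 15.6, 9.02 and 5.94 in the tumors (5.41 ± 0.62, adjusted p = 0.00234), and 353 and 304 against 12.4 and 25 in muscle (adjusted p = 0.00348). *miR-191-3p*, the minor arm of an abundant hairpin, had 467 and 436 against 32.6, 21 and 39.6 (3.86 ± 0.56, adjusted p = 0.00499), and 391 and 380.1 against 71.5 and 48.4 in muscle. *miR-199b-5p*, a product of mesenchymal cells, had 55533 and 8106 against 1071, 2295 and 522 (4.29 ± 0.98, adjusted p = 0.0221), and 5954 and 12905 against 235 and 279 in muscle (5.09 ± 0.95, adjusted p = 0.00995). Its 3p arm, which cannot be told from *miR-199a-3p*, overlapped between the species. Without *Spalax* tumor Sp2230 the call of *miR-199b-5p* at the tumor was lost (adjusted p = 0.11). Its muscle call was lost without muscle M1023 (0.0568), M512 (0.061) or Sp2240 (0.0961), and that of *miR-191-3p* without muscle M512 (0.076), Sp2230 (0.0937) or Sp2240 (0.0867).

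A last set was higher in the *Spalax* tumors and did not pass the test in muscle. *miR-146b-5p*, induced by NF-κB and a brake on inflammatory signals, had 21997 and 42499 against 2535, 3356 and 813 in the tumors (4.00 ± 0.71, adjusted p = 0.0097), and 4302 and 2933 against 2992 and 2293 in muscle (0.44 ± 0.68). Its partner *miR-146b-3p* had 69.1 and 137 against 4.27, 6.01 and 0.99 (4.55 ± 0.80, adjusted p = 0.0097). Unlike the rest of this set, *miR-146b-3p* did not pass in the difference of tumor and muscle contrasts given below. *miR-155-5p*, from activated leukocytes and raised in many tumors, had 4269.7 and 3923 against 1438, 763 and 630.4 (2.21 ± 0.52, adjusted p = 0.0237). *miR-204-5p* had 1369 and 148 against 10.1, 27.6 and 49.5 (4.16 ± 1.12, adjusted p = 0.0359), with a wide gap between both *Spalax* tumors. The groups did not overlap in any of the 4, but each call depended on 1 library. The call of *miR-146b-5p* was lost without either *Spalax* tumor (adjusted p = 0.056 and 0.068), that of *miR-146b-3p* without *Spalax* tumor Sp2240 (0.058), and those of *miR-155-5p* and *miR-204-5p* without *Spalax* tumor Sp2230 (0.1 and 0.17), without mouse tumor M1023 (0.1 and 0.1) and in further single-library omissions, at 0.083 for *miR-155-5p* without *Spalax* tumor Sp2240 and 0.073 for *miR-204-5p* without mouse tumor M1019.

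**Figure D4:**
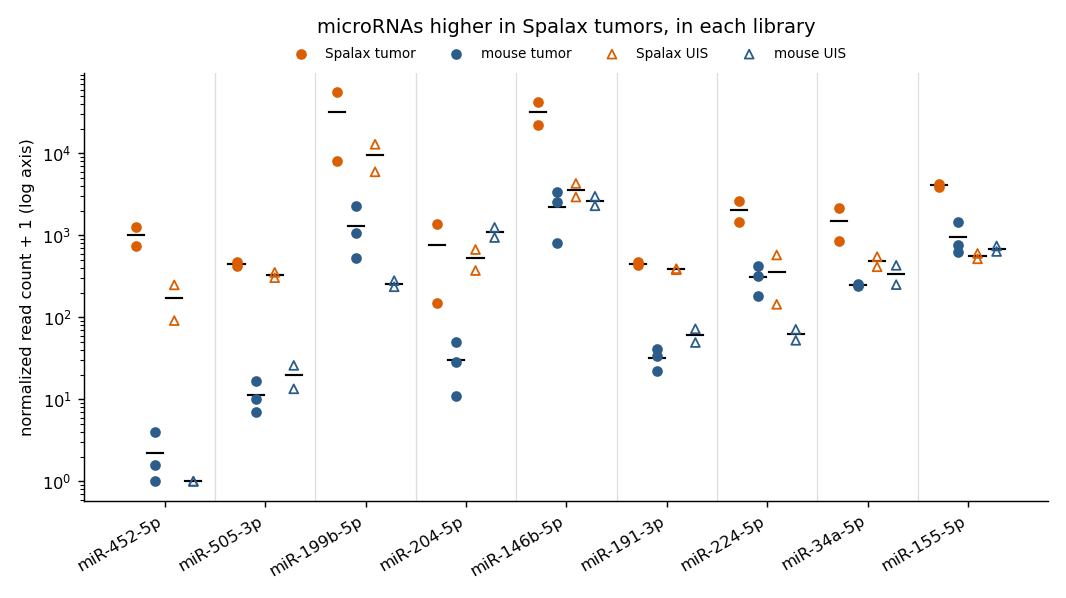
Normalized read counts + 1 (log scale) of 9 microRNAs that were higher in the Spalax tumors, 1 point a library. The uninjected muscles of the same animals, except mouse M1019, stand beside them. The Spalax tumors lie above all mouse tumors in each panel, as for miR-452-5p with 1269.7 and 751 against at most 3.05.

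The lists of cell types are set beside the 8.31% of all tested microRNAs that were higher and the 21.9% that were lower. Of the 9 tested leukocyte microRNAs (*miR-223*, *miR-142*, *miR-150*, *miR-342* and *miR-155*), only *miR-155-5p* passed, and the list took 0.978% and 2.50% of reads in the *Spalax* tumors and 1.91%, 0.805% and 0.386% in the mouse tumors. *miR-142a-5p*, of all blood cells, had 25440.5 and 39296 against 39729, 18856 and 8813, with overlapping groups. The neutrophil microRNA *miR-223-3p* had 5597 and 55348 against 4065, 3051 and 1077 and did not pass (2.89 ± 1.06, adjusted p = 0.0845). Of 11 inflammatory microRNAs, 3 were higher (both arms of *miR-146b*, and *miR-155-5p*) and 1 lower (*miR-212-3p*). The part of leukocytes in the difference of *miR-155-5p* was not tested. Red cell microRNAs took 0.639% and 1.64% of reads in the *Spalax* tumors and 1.08%, 2.27% and 6.42% in the mouse tumors, with a median difference of −1.66, and 1 of 7 was called (*miR-144-3p*, higher). The call of *miR-144-3p* was lost without any 1 tumor but M512 (adjusted p of 0.102 to 0.191). Of 6 tested muscle microRNAs none passed at the tumor, with a median of −5.16, and mouse tumors M1023 and M512 held the muscle shares given above. Of 13 fibroblast microRNAs only *miR-199b-5p* passed and the median was 0.08. The epithelial list took 0.0691% and 0.0164% of reads in the *Spalax* tumors and 0.170%, 0.196% and 1.04% in the mouse tumors, without overlap, and its median was −1.12. None of 10 epithelial, 4 neuronal and liver or 2 endothelial microRNAs passed, and 1 of 5 smooth muscle names (*miR-145b*, lower) did.

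The lists tied to growth are set beside the same 8.31% and 21.9%, and beside the median of 0.01 over all 433. Of 18 tested members of *miR-17-92* and its paralogs, drivers of the cell cycle, only *miR-25-3p* passed, at 35058 and 42859 against 13795, 11106 and 16323 (1.51 ± 0.38, adjusted p = 0.0287), and the list's median was 0.67. The call of *miR-25-3p*, like that of *miR-30e-5p* below, was lost without any 1 tumor but M512 (0.0783 to 0.0989 and 0.057 to 0.0801). None of 16 *let-7* names, brakes on *Ras* and *Lin28*, passed, with a median of 0.32. Of 16 microRNAs often raised in tumors, 1 was higher (*miR-155-5p*) and 2 were lower (both arms of *miR-31*). *miR-221-3p* had 14005 and 89303 against 6132, 9502 and 7091 and did not pass (2.25 ± 0.79, adjusted p = 0.0756). None of 8 names from the *Hox* clusters, 5 of *miR-181*, 9 of *miR-99*, *miR-100* and *miR-125* or 8 of *miR-23*, *miR-27* and *miR-24* passed, and *miR-24-2-5p* was not counted in the last of these lists. In the *miR-30* family, 2 of 8 were higher, with *miR-30e-5p* at 60527 and 73926 against 15778, 22081 and 24377 (1.71 ± 0.38, adjusted p = 0.0207), and the median was 0.88. Of 7 tested *miR-26* and *miR-101* names, *miR-101b-3p* alone passed. The rodent cluster in an intron of *Sfmbt2* took 0.417%, 0.484% and 1.26% of reads in the mouse tumors and 0.0043% and 0.0049% in the *Spalax* tumors, and 70 of its 72 names had reads in mouse tumors only, so that it could not be compared.

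A further list was assembled here from the study's supplementary sheets, of microRNAs tied to *Cdkn1a*, *Foxo1* and extracellular matrix genes. It held 22 names, which need not be the number given by the study itself, and since they were picked with these libraries their direction is not independent evidence. Of the 21 tested, 3 were higher in the *Spalax* tumors (*miR-224-5p*, *miR-34a-5p* and *miR-423-3p*), 1 was lower (*miR-370-3p*) and 17 did not pass, with a median of 0.97, against 8.31% higher and 21.9% lower over all tested. *miR-423-3p* had 13622 and 7766 against 3522, 3041 and 2575 (1.77 ± 0.45, adjusted p = 0.0298). The call was lost without any 1 tumor but Sp2240 (0.0571 to 0.124) and with reads scaled to library totals (0.0893). It was higher in *Spalax* muscle too (1.54 ± 0.39, adjusted p = 0.0358), a call that was lost without any 1 muscle library (0.134 to 0.222) or without mouse tumor M1023 (0.0652). Among those that did not pass, *miR-182-5p* had 1986 and 336 against 2974, 4049.5 and 23908 (−3.01 ± 1.13, adjusted p = 0.0897) and *miR-17-5p* had 1324 and 2579.8 against 815, 1028 and 2156 (0.60 ± 0.61, adjusted p = 0.512).

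The uninjected side asked which species differences were there in muscle away from the tumor, in the same injected and tumor-bearing animals. In muscle, 23 of the 433 microRNAs (5.31%) were higher and 34 (7.85%) lower in *Spalax*. Of the 95 that were lower in the *Spalax* tumors, 25 were also lower in muscle and 3 were higher there, and of the 36 that were higher in the tumors, 10 were also higher in muscle. Without any 1 of the 4 muscle libraries, 4 to 7 microRNAs were higher in *Spalax* muscle and 14 to 17 lower. Of the 25 microRNAs named in the text or its lists that passed in muscle, 10 passed under every setting in which they were tested, among them *miR-351-5p*, *miR-434-3p*, *miR-541-5p* and *miR-505-3p*, which were not tested where 10 was required in all 5 tumors. The imprinted microRNAs did not share a direction in muscle, with 6 lower (10.3%), 4 higher (6.9%) and 48 not called of 58, and a median of 0.11.

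The difference between both contrasts was tested next, as the species difference at the tumor less that in muscle. It passed for 55 microRNAs (12.7%) in the direction of lower in *Spalax* and for 6 (1.39%) in the direction of higher. Of the 58 imprinted microRNAs 45 (77.6%) were among the 55, with a median of −4.90, against 0.37 for the others. The smallest p-values went to *miR-495-3p* (−7.77 ± 0.92), *miR-381-3p* (−6.20 ± 0.76), *miR-410-3p* (−5.77 ± 0.76) and *miR-153-3p* (−6.54 ± 0.84), each with an adjusted p of 0.00483, and to *miR-370-3p* (−8.93 ± 1.27, adjusted p = 0.00623). *miR-153-3p* is not of the locus. Its tumor values were 1.09 and 0, from 2 reads, against 94.8, 99.8 and 99, and its muscle values were at most 3.61 in both species. The muscle microRNA *miR-206-3p* also passed, with 26058 and 22845 against 1629 and 1157 in muscle, and it did not pass at the tumor. Its call was lost without mouse tumor M1023 (adjusted p = 0.0883), either *Spalax* tumor or any 1 muscle library. In the other direction stood *miR-155-5p* (2.51 ± 0.64, adjusted p = 0.0379), *miR-146b-5p* (3.56 ± 0.92, 0.0393), *miR-204-5p* (5.28 ± 1.42, 0.0433), *miR-30a-3p* (2.82 ± 0.67, 0.0299) and both arms of *miR-338*. *miR-30a-3p* did not differ past the threshold at the tumor, with 1868 and 725 against 524, 608 and 674, and it was lower in *Spalax* muscle, with 7938 and 5664 against 23206 and 25746. *miR-338-5p* had 50.6 and 213 against 16.8, 15 and 13.9 in the tumors and 141 and 62.5 against 177 and 206 in muscle, and its difference (3.72 ± 0.99, adjusted p = 0.0423) no longer passed with the animal as a block (adjusted p = 0.11), as was the case for *miR-338-3p* (0.082). The 5 lower ones first named passed under every setting in which they were tested, and the higher ones did not. *miR-495-3p*, *miR-370-3p* and *miR-153-3p* were not tested where 10 was required in all 5 tumors. The contrast rested on 2 muscles a species, and the count of 55 became 7 to 11 when any 1 muscle library was left out, 20 without *Spalax* tumor Sp2230 and 32 without mouse tumor M1023. The 45 imprinted microRNAs became 5 to 9, 18 and 26 in the same omissions, and without any 1 muscle library none of the 6 higher ones passed.

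The balance between the arms of a hairpin was compared for the 129 hairpins with both arms tested. Since 1 was added to the normalized read count of each arm, the scaling between libraries enters where reads are few. The ratio of 5p to 3p was higher in *Spalax* for 17 hairpins (13.2%) and lower for 9 (6.98%). The largest was that of *Mir450b*, where *miR-450b-5p* and *miR-450b-3p* gave 3 against 41 and 0 against 7 reads in the *Spalax* tumors and 2348 against 93, 1633 against 48 and 2875 against 47 in the mouse tumors (−8.77 ± 0.48 on the log2 ratio, adjusted p = 0.000167). *miR-450b-3p* itself, at 22.3 and 15.2 against 28.4, 28.8 and 46.5, did not pass (−0.83 ± 0.61). In *Mir28a*, 5p over 3p was 0.468 and 0.386 in *Spalax* and 2.24, 2.08 and 1.88 in mouse, so that the leading arm changed (−2.28 ± 0.27, adjusted p = 0.00219). In *Mir34c* it was 9 and 11 against 69.3, 69 and 69.7 (−3.12 ± 0.32), where the *Spalax* ratios rested on 27 against 3 and 66 against 6 reads. In *Mir191* it was 150 and 224 against 1611, 1681 and 1106 (−2.93 ± 0.33). Ratios that were higher in *Spalax* included *Mir132* (0.618 and 0.667 against 0.0994, 0.112 and 0.0725), *Mir20a* (118 and 156 against 22.8, 14.2 and 14.6), *Mir322* (30.4 and 47.5 against 5.85, 7.6 and 3.85), *Mir186* (3.06 ± 0.35) and *Mir501* (3.53 ± 0.47), all without overlap. Some rested on few reads in the *Spalax* tumors. The 3p arm had 13 and 6 reads in *Mir20a* and 6 and 2 in *Mir186*, and *Mir501* had 8 against 44 and 2 against 4. *Mir666* (−2.48 ± 0.42, adjusted p = 0.0113) rested on 4 reads in the *Spalax* tumors, and its call was lost with a pseudocount of 0.1 (adjusted p = 0.073). Without mouse tumor M1019 the ratio was higher in *Spalax* for 9 hairpins and lower for 5, and without mouse tumor M512 it was lower for 5.

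**Figure D5:**
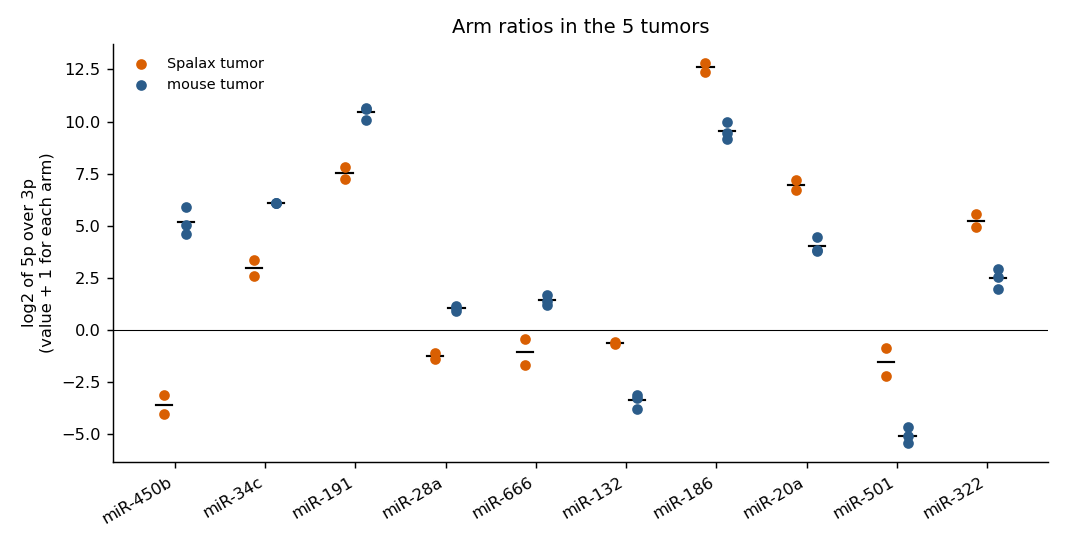
Log2 of the 5p over the 3p normalized read count, each + 1, of 10 hairpins in the 2 Spalax and 3 mouse tumors. Each point is 1 library, and the line at 0 marks equal arms. For Mir28a the Spalax tumors lie below the line (ratios of 0.468 and 0.386) and the mouse tumors above it (1.88 to 2.24).

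The leading arm differed between the species in 6 of the 129 hairpins tested and in 5 of the 26 that passed (*Mir28a*, *Mir335*, *Mir450b*, *Mir485* and *Mir666*). In the *Spalax* tumors *Mir485* rested on 7 against 4 and 4 against 2 reads, and *Mir666* on 1 against 2 and 0 against 1. Of 30 hairpins with both arms called in the level comparison, none had arms that went in opposite directions. A mature arm whose *Spalax* sequence departs from the mouse one would shift such a ratio, and the part of this was not tested.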

How the data were processed

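MicroRNA libraries (TruSeq small RNA kit) were trimmed and mapped with mirDeep by the authors. The reference used for the *Spalax* reads is not given in the sources used here, and the submitters' processing notes list GRCm38, TopHat 1.4.1, HTSeq and DESeq without a role. The authors deposited 1 signal per microRNA and library, normalized read counts, that is, reads divided by a size factor. In the table that holds both species, 100% of values were whole multiples of the value of 1 read (tolerance 0.01), and the factors equaled the DESeq2 median-of-ratios factors over 14 libraries of both species, computed on 383 names. A scale shared by the species assumes that most microRNAs do not differ. In the mouse table, 1 column matched no label and was used only for that check. The uninjected side of mouse M1019 was not analysed here.

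Levels were tested with limma 3.58.1 (R 4.3.3, trend, two-sided) on log2(value + 1), with Benjamini-Hochberg adjustment over 433 microRNAs and a threshold of 0.05. The tumor contrast used the 5 tumors, and the muscle contrast and the difference of contrasts used 9 libraries with 4 group means. Arm ratios were tested on log2((5p value + 1)/(3p value + 1)) of 129 hairpins without the trend. Because the deposited values are not counts, edgeR 4.0.16 and DESeq2 1.42.0 were run only as alternatives, on the recovered reads, beside other scalings, filters, pseudocounts and the omission of each library. The scripts were tested on simulated data. No label tells whether animals shared a litter or cage, and p-values measure the spread between these animals only.

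Tumor and muscle came from the same animals, so both sides are paired by design, although their deviations from the group means correlated little (−0.0399 for both *Spalax*, 0.0337 and 0.0449 for the mice). The text names the 10 most abundant microRNAs of each species, the 10 largest differences each way without overlap, the 5 smallest p-values each way of the difference of contrasts and of the arm ratios, the most abundant members of each list, and the 22 microRNAs of a list assembled here from the study's supplementary sheets. Other names are said to be chosen after their values were seen. The members, lists and tests were chosen with earlier results of these data known. Hairpins were read from GENCODE M21 (GRCm38) and folded with RNAfold 2.7.2.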

Additional observations from a re-analysis of the deposited data

Results flagged for a closer look

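The species difference at the tumor departed from that in muscle, by a test of the difference itself (limma, Benjamini-Hochberg adjusted), for 55 microRNAs in the direction of lower in *Spalax* and for 6 in the direction of higher. Among those named, the difference of both contrasts (log2) was −7.77 for *miR-495-3p*, −6.20 for *miR-381-3p*, −6.54 for *miR-153-3p*, −5.77 for *miR-410-3p* and −8.93 for *miR-370-3p*. It was 5.28 for *miR-204-5p*, 3.56 for *miR-146b-5p*, 2.82 for *miR-30a-3p*, 2.51 for *miR-155-5p* and 3.72 for *miR-338-5p*.

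Some names lay outside the comparison because only one species had reads. In the mouse tumors alone, 77 names had a normalized read count of at least 10 in all 3 libraries, and 52 of them had no read in any *Spalax* library. The highest was *miR-669a-3p*, with the same values as *miR-669o-3p*, at 1793, 2120.3 and 4430 in the mouse tumors. In the *Spalax* tumors alone, 21 names had a read, none of them at 10 or more in both.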

How the results depend on the processing

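Requiring a value of at least 10 in all 5 tumors, which leaves 290 microRNAs, gave 14 higher and 21 lower in *Spalax* at the tumor, 19 lower in muscle, 0 higher and 6 lower for the difference of contrasts (56 at an unadjusted p under 0.05), and 8 and 4 of the imprinted microRNAs. DESeq2 gave 56 higher at the tumor, 61 lower in muscle and 35 higher for the difference. The fit of all 13 libraries gave 73 higher at the tumor. Library totals gave 18 higher at the tumor, 19 lower in muscle and 0 higher for the difference (113 at an unadjusted p under 0.05 in either direction, with 35 higher by DESeq2). With both arms at 10 or more, 8 arm ratios were higher and 3 lower, and with a pseudocount of 0.1, 9 and 4. Leaving out 1 library gave 9 to 31 higher and 32 to 91 lower at the tumor (22 to 53 imprinted), 4 to 34 and 14 to 43 in muscle, 0 to 11 and 7 to 62 for the difference (5 to 52 imprinted), and 9 to 14 and 5 to 8 for arm ratios. A group left with 1 library is assumed to vary like the others. edgeR gave 32 higher and 95 lower at the tumor. Blocking on the animal (replicate block), the difference of contrasts gave 4 higher and 49 lower, 35 of them imprinted, and 42 of the lower and 4 of the higher were shared with the fit without it. No called microRNA that the text names changed direction, and of 47 called at the tumor 37 kept their call under every setting that kept all libraries and 22 under every setting in which they were tested. The block ended the calls of both arms of *miR-338*, and of no other microRNA whose value in that contrast is printed. Where calls were lost, the cause was not tested. *Spalax* tumor Sp2240 is the shallowest library (2034574 reads), and levels under about 1 read there (2.17) cannot be read.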

Other observations

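*miR-196a-5p*, from the *Hox* clusters, stood at 27917 in the uninjected side of mouse M512 and 6.21 in that of mouse M1023. In the tumors it had 277 and 2263 in *Spalax* and 51.2, 122 and 6.93 in mouse, without overlap, and did not pass the test (4.42 ± 1.39, log2 difference ± SE, limma adjusted p = 0.0558).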
